A study of Mus musculus with 13 samples.

Results

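Regulatory T cells (Treg) were compared with conventional CD4 T cells (Tconv), both sorted from mouse spleen, across the transcriptome. The comparison holds 10 of the 13 RNA-seq libraries of the series, 5 of Treg and 5 of Tconv, assigned by their sample labels. Both the comparison and the gene lists used below were chosen with earlier results of these data known. The Treg gate was CD4+, negative for surface PD-1 and positive for GFP reporting Foxp3. The Tconv gate was CD4+, negative for surface PD-1 and negative for GFP. Both populations therefore share the absence of surface PD-1, and Treg carrying PD-1 were outside the gate. The remaining 3 libraries, from PD-1-high Foxp3-negative cells, were not compared and entered the fit only through the shared variance. Experiments 3, 5 and 6 each gave both populations. Mouse strain, age, sex, the reporter allele and the number of animals per sort are not stated in the labels.

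Treg are CD4 T cells that restrain immune responses and are specified by the transcription factor Foxp3. They carry the high-affinity IL-2 receptor chain CD25, encoded by Il2ra, but make little IL-2, and they act through CTLA-4, through cytokines such as IL-10 and TGF-beta, and through ectoenzymes that convert extracellular ATP to adenosine. Conventional CD4 T cells of the spleen are a mixture of naive and antigen-experienced cells, and can make IL-2 and helper cytokines.

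Values are scaled counts, which are reads per gene divided by a size factor of the library. Where an experiment has 2 libraries of a population their mean was taken, which gives each population 3 values, always listed in the order of experiments 3, 5 and 6. Depth was 17735160 to 24216463 reads in genes per library. The second Treg library of experiment 3 stood apart from the other Treg libraries: its reads differed from theirs by a chi-square of 72.3 to 92.7 per degree of freedom, where 1 is sampling noise, against 16.5 to 30.3 among Treg libraries of different experiments without it. No count of 3 or more genes per list given below moved by over 1.5 times when that library was left out. Fold changes are differences of log2(scaled count + 1), Treg minus Tconv, given ± standard error, with p adjusted over all 14177 genes tested. Each call was recomputed under 20 other settings of the fit, among them leaving out each of the 6 values and each of the 3 experiments. Where a named gene lost its call in any of them, this is stated beside it. Since these are bulk samples, fewer cells of a type and less RNA per cell cannot be told apart.

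The genes used in the sort went with the labels. Foxp3 read 15895, 15373 and 16400 in Treg against 291, 256 and 328 in Tconv (log2 fold change 5.77 ± 0.22, adjusted p = 2.11e-08). Il2ra, which was not part of the gate, read 24347, 23905 and 25805 in Treg against 559.5, 569.8 and 476 in Tconv (log2 fold change 5.53 ± 0.13, adjusted p = 5.83e-10). Neither gene overlapped between populations, and neither was at 0 in Tconv. Since GFP reported Foxp3, the difference in Foxp3 checks the sort and is not a finding. Cd3e, the invariant epsilon chain of the T cell receptor complex, did not pass the test (23540 against 25714 on average, log2 fold change -0.13 ± 0.11, adjusted p = 0.563). Cd4 read 15149, 17302 and 19031 in Treg against 28569, 26238 and 29396 in Tconv (log2 fold change -0.71 ± 0.14, adjusted p = 0.00484), so that a gene carried by every sorted cell was lower in Treg in all 3 experiments (call lost without experiment 3, adjusted p = 0.102 and without experiment 5, adjusted p = 0.0536). Pdcd1, which encodes PD-1, was detected in both PD-1-negative gates and read 1990, 1914 and 1961 in Treg against 1075, 1287 and 1033 in Tconv (log2 fold change 0.79 ± 0.13, adjusted p = 0.00118).

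Of 14177 genes tested, 2039 (14.4%) passed an adjusted p of 0.05. Of these, 1237 (8.73% of genes tested) were higher in Treg and 802 (5.66%) were lower. All 2039 went the same way in 3 of 3 experiments. Direction was counted on the same values that gave the calls, so this agreement is no separate evidence. The 3 values of 1 population lay wholly above those of the other for 2035 of them, and for 4855 genes (34.2%) whether called or not. Differences over 2-fold were found for 1321 genes (9.32%), 917 higher and 404 lower, and differences over 8-fold for 204 higher and 94 lower. The median log2 fold change of all genes tested was 0.006, and scaling libraries to equal totals shifted it by 0.066. No called gene turned direction in any of the 20 settings, and 763 (37.4%) kept their call in all of them. Leaving out experiment 5 lowered the counts to 664 higher and 312 lower, and leaving out experiment 3 to 702 and 348.

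**Figure D1:**
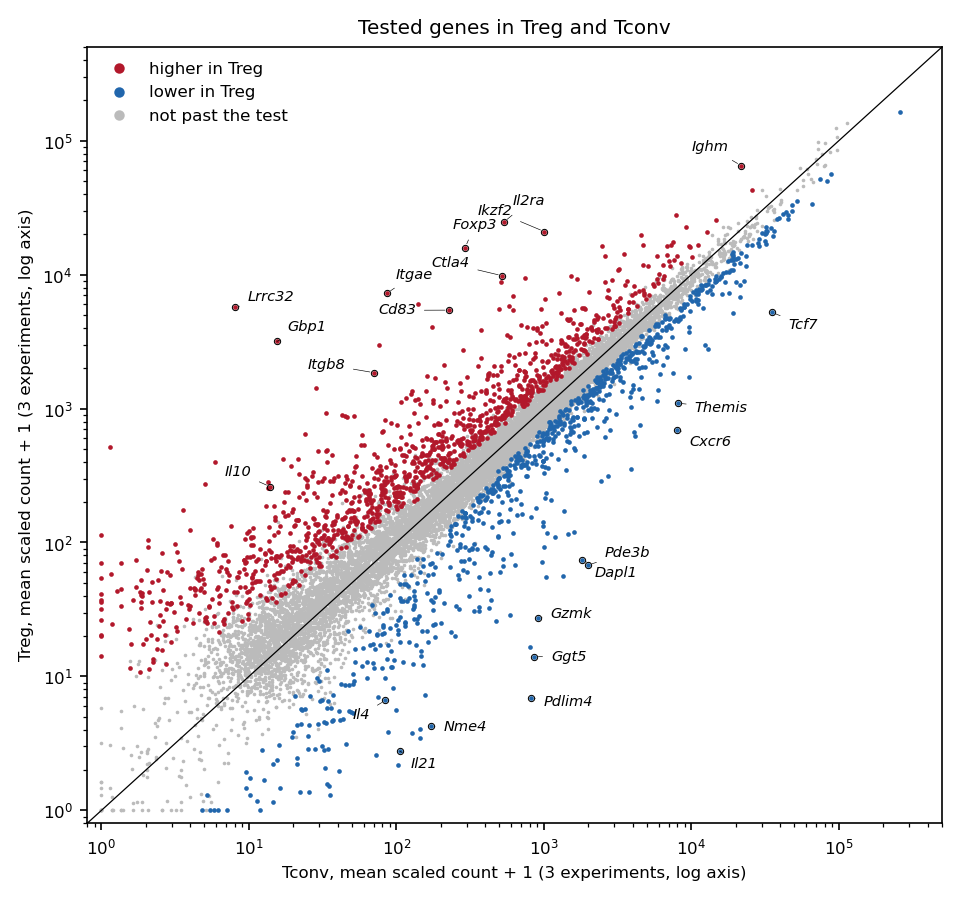
Mean scaled count plus 1 of each tested gene in Tconv (horizontal) and Treg (vertical), means of 3 experiments on log axes, with red points higher in Treg, blue points lower in Treg and grey points not past the test. Lrrc32, Gbp1 and Itgae lie far above the diagonal of equal levels, and Pdlim4, Ggt5 and Gzmk far below it.

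With 1 added before the logarithm, which understates changes of genes near 0, the highest fold change was that of Lrrc32. This gene encodes GARP, the surface anchor of latent TGF-beta on Treg. It read 5260, 6132 and 5670 in Treg against 5.33, 4.27 and 11.6 in Tconv (log2 fold change 9.57 ± 0.34, adjusted p = 1.08e-08). Gbp1, an interferon-inducible GTPase, read 2180, 4206 and 3117 in Treg against 25.6, 7.58 and 10.3 in Tconv (log2 fold change 7.80 ± 0.41, adjusted p = 3.19e-07). Itgae, the alpha E integrin chain CD103, which binds E-cadherin, read 6930, 7277 and 7585 in Treg against 74.6, 67.7 and 114 in Tconv (log2 fold change 6.43 ± 0.23, adjusted p = 1.08e-08). All 3 were near the lowest detectable levels or at most a little over 100 in Tconv and far higher in Treg. Of the other genes among the 10 with the highest fold change, Foxp3 is given above. Ccdc46 had 2752 reads in all Treg libraries together and 1 read in Tconv, a ratio of 2.48e+03 with a 95% counting interval from 445 to 9.81e+04. Noxa1, an activator of NADPH oxidases, had 603 reads in Treg and 0 in Tconv, which is at least 181-fold higher with a floor of 3 reads set for the whole population. Such intervals and floors treat pooled reads as independent counts and leave out variation between experiments and libraries. Molecules copied by PCR are counted repeatedly, so even the counting error may be larger than they show. Glt28d2, Rln3, Faim3 and Fam160a1 had log2 fold changes of 6.30, 5.84, 5.79 and 5.62, with Tconv means of 4.90, 4.01, 1.07 and 27.4.

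At the other end, Pdlim4, a PDZ and LIM domain protein of the actin cytoskeleton, read 4.55, 1.88 and 11.3 in Treg against 800.3, 987 and 666 in Tconv (log2 fold change -7.12 ± 0.96, adjusted p = 3.41e-04). Lypd6b read 9.15, 0 and 37.4 in Treg against 733, 718 and 973 in Tconv (log2 fold change -6.78 ± 0.98, adjusted p = 5.65e-04). Ggt5, a gamma-glutamyltransferase, read 9.02, 11.3 and 18.9 in Treg against 782, 872 and 922 in Tconv (log2 fold change -5.99 ± 0.31, adjusted p = 2.37e-07). In each, all 3 Tconv values lay above all 3 Treg values, but the ranking admitted only genes with this separation. The cytokine gene Il21 read 1.40, 2.82 and 1.08 in Treg against 158, 89.7 and 65.8 in Tconv (log2 fold change -5.21 ± 0.36, adjusted p = 2.75e-06). Nme4, St6galnac1, A530021J07Rik, Arhgap29, Esm1 and AI646023 completed the 10 lowest, with log2 fold changes from -5.71 for Nme4 to -5.20 for AI646023. Of these, Arhgap29 was sensitive to the samples used (call lost without experiment 3, adjusted p = 0.0725).

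Genes were then grouped into 34 lists by known role, and each list is described by its counts beside the 14.4% of all genes that passed. Members were counted only where they had a mean scaled count of at least 10, and no list was tested as a set.

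**Figure D2:**
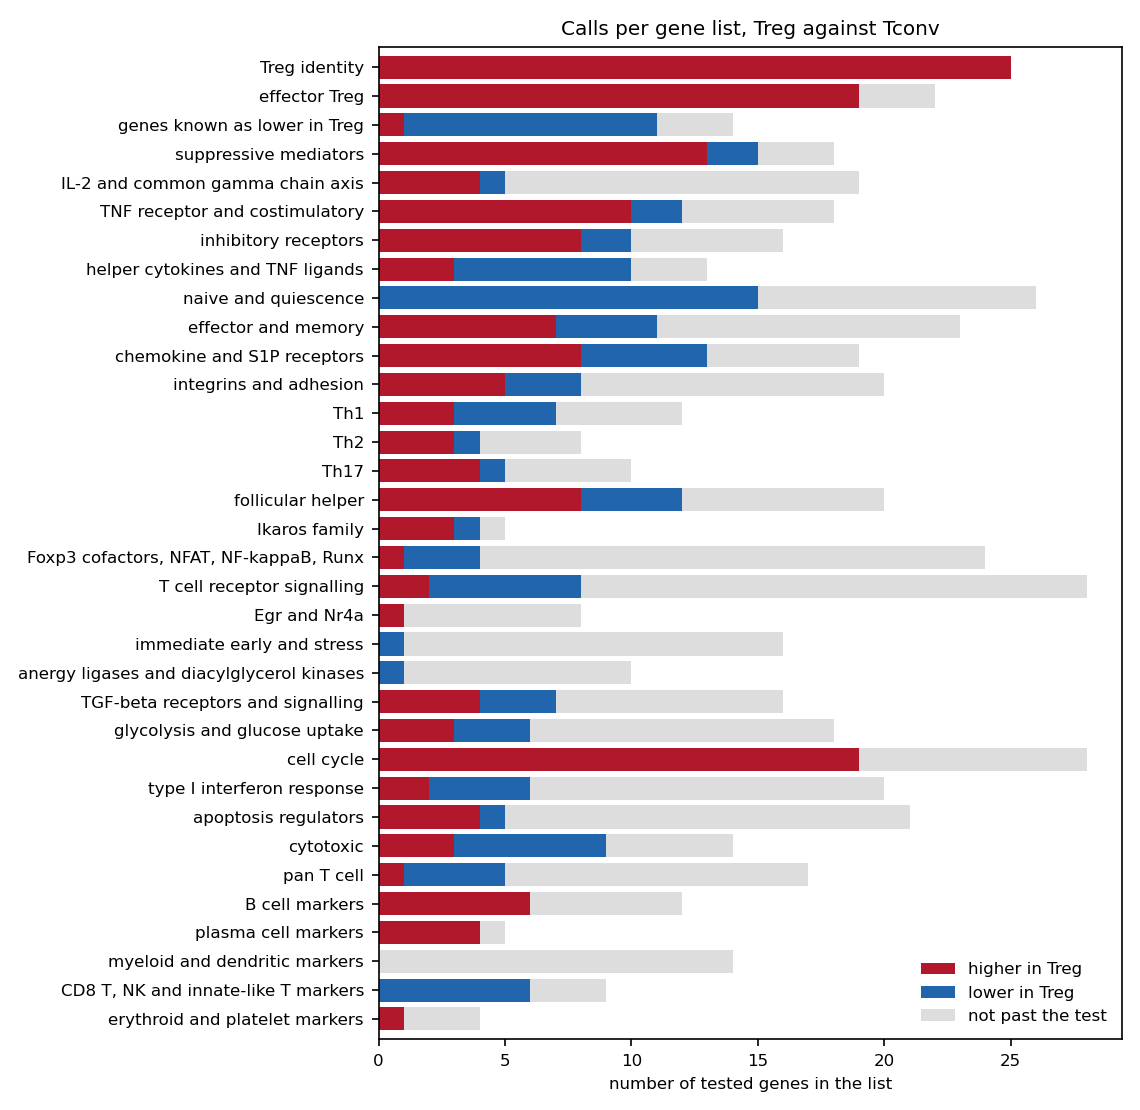
Number of tested members of each of the 34 gene lists that were higher in Treg (red), lower in Treg (blue) or not past the test (grey). All 25 Treg identity genes are red, the naive and quiescence bar holds 15 blue and no red members, and most members of the T cell receptor signalling bar are grey.

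All 25 of 25 genes on the Treg identity list were higher in Treg, where 8.73% of all genes tested were, with a median log2 fold change of 2.90. The list was drawn from genes known for this difference, so its direction is no independent evidence. Among transcription factors, Ikzf2, which encodes Helios, read 20113, 19660 and 23054 in Treg against 985, 1132 and 902 in Tconv (log2 fold change 4.38 ± 0.14, adjusted p = 5.75e-09). Ikzf4, which encodes Eos, a partner of Foxp3, read 3628, 3923 and 4030 in Treg against 371, 368 and 389 in Tconv (log2 fold change 3.36 ± 0.14, adjusted p = 5.32e-08). For both, every Treg value lay far above every Tconv value, and each population varied little. Plagl1, a zinc-finger factor, was far less abundant and more variable, at 95.2, 203 and 87.0 in Treg against 30.9, 5.18 and 1.78 in Tconv (log2 fold change 3.88 ± 0.69, adjusted p = 0.00227, call lost without experiment 5, adjusted p = 0.0851).

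Surface receptors made up most of the rest of that list. Ctla4, whose product captures CD80 and CD86 from antigen-presenting cells, read 10840, 9269 and 9287 in Treg against 479.5, 604 and 480.2 in Tconv (log2 fold change 4.23 ± 0.14, adjusted p = 5.75e-09). Cd83, a stabiliser of surface MHC class II and CD86, read 5690, 5191 and 5401 in Treg against 305, 164 and 210.0 in Tconv (log2 fold change 4.62 ± 0.21, adjusted p = 9.49e-08). Gpr83, a G protein-coupled receptor, read 9505, 7945 and 8952 in Treg against 506, 492 and 544 in Tconv (log2 fold change 4.09 ± 0.18, adjusted p = 7.91e-08). These 3 showed no overlap between populations. Nrp1 (neuropilin), Folr4 (of the folate receptor family), Tnfrsf18 (GITR) and Il2rb were abundant in Tconv as well, with means of 2471, 4536, 2581 and 7842, and had log2 fold changes of 2.74, 2.12, 1.77 and 1.83. The smallest fold change of the list was that of Ecm1, an extracellular matrix protein, at 1.71. Exons of Tnfrsf18 and Nrn1 overlap those of other genes over 27.2% and 22.3% of their length, and without strand information reads there could belong to either gene.

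Ectoenzymes and intracellular members of the list rose as well. Nt5e encodes CD73, which makes adenosine from AMP, and read 10856, 14342 and 15823 in Treg against 2686, 2482 and 2616 in Tconv (log2 fold change 2.38 ± 0.23, adjusted p = 2.63e-05). Entpd1 encodes CD39, which degrades ATP and ADP, and read 1678, 2361 and 2154 in Treg against 321, 411 and 334 in Tconv (log2 fold change 2.53 ± 0.19, adjusted p = 4.84e-06). Both showed a lower value in experiment 3 than in the other 2 Treg values, without overlap with Tconv. Swap70, Capg, Rgs1, Socs2, Fgl2, Penk and Nrn1 had log2 fold changes of 3.33, 2.67, 1.80, 1.91, 2.50, 2.88 and 2.90. Of these, Penk is the precursor of enkephalin peptides and Fgl2 a secreted fibrinogen-like protein.

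**Figure D3:**
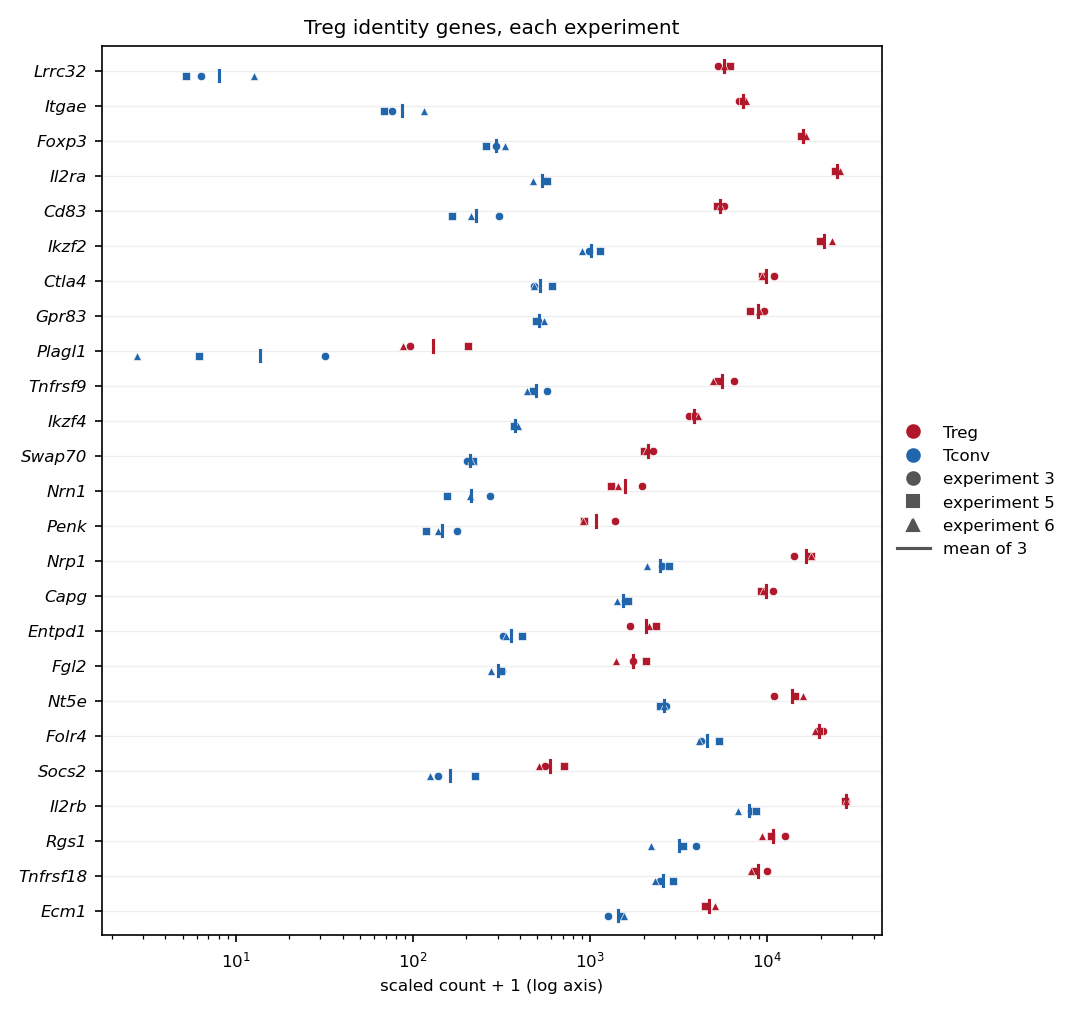
Scaled count plus 1 (log axis) of the 25 Treg identity genes in each experiment, Treg in red and Tconv in blue, with a bar at the mean of 3. No gene overlaps between populations, and Tconv values of Lrrc32 and Plagl1 reach below 10.

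Genes of suppressive function and of effector Treg were mostly higher in Treg. Of 18 tested suppressive mediators, 13 were higher and 2 lower, with a median log2 fold change of 2.39. Itgb8, the integrin chain that with the alpha V chain activates latent TGF-beta, read 1563, 1787 and 2204 in Treg against 113, 52.7 and 42.9 in Tconv (log2 fold change 4.83 ± 0.29, adjusted p = 8.80e-07), and its partner Itgav read 1352, 1003 and 1303 in Treg against 501, 459 and 518 in Tconv (log2 fold change 1.30 ± 0.20, adjusted p = 9.12e-04). Il10, an inhibitory cytokine, read 354, 247 and 178 in Treg against 7.46, 28.9 and 2.57 in Tconv (log2 fold change 4.70 ± 0.61, adjusted p = 2.69e-04). Ebi3, a subunit shared by IL-27 and IL-35, read 360.0, 367 and 218 in Treg against 49.0, 34.0 and 33.8 in Tconv (log2 fold change 2.97 ± 0.28, adjusted p = 2.25e-05). In all 4 genes the populations did not overlap, although Il10 varied among the Tconv values from 2.57 to 28.9. Areg, the growth factor amphiregulin, was low in both (41.3 against 3.95 on average, log2 fold change 3.47 ± 0.72, adjusted p = 0.00612, call lost without experiment 3, adjusted p = 0.0587).

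Within the same list, Tgfb1 and Tgfb3, transcripts of TGF-beta itself, were not called higher as Lrrc32 and Itgb8 were. Tgfb2 was below the minimum level for testing. Tgfb3 was lower in Treg, at 28.9, 34.8 and 65.0 in Treg against 161, 223 and 194 in Tconv (log2 fold change -2.21 ± 0.30, adjusted p = 3.16e-04). Tgfb1 did not pass the test and was low in both populations (38.8 against 23.6, log2 fold change 0.54 ± 0.62, adjusted p = 0.677). Its standard error was larger than its difference, so a change in Tgfb1 is not settled. Of the cytotoxic mediators, Gzmb, granzyme B, was higher at 629, 468 and 417 in Treg against 117, 184 and 97.7 in Tconv (log2 fold change 1.95 ± 0.38, adjusted p = 0.00382, call lost without experiment 3, adjusted p = 0.0841). Prf1, perforin, was lower at 550.2, 735 and 714 in Treg against 1492, 1453 and 1791 in Tconv (log2 fold change -1.25 ± 0.22, adjusted p = 0.00225). Gzmk, another granzyme described with the cytotoxic genes, was lower, and Gzma and Gzmm did not pass (-0.99 and 0.25).

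Of 22 tested effector Treg genes, 19 were higher, with a median of 2.12. Without experiment 3 the count was 12. Tnfrsf4, the costimulatory receptor OX40, read 11229, 8557 and 8344 in Treg against 620.2, 1007 and 606 in Tconv (log2 fold change 3.68 ± 0.20, adjusted p = 3.58e-07). Tigit, an inhibitory receptor for CD155, read 7122, 7070 and 6483 in Treg against 532, 852 and 465 in Tconv (log2 fold change 3.53 ± 0.21, adjusted p = 6.62e-07). Prdm1, which encodes the transcription factor Blimp-1, read 2155, 2451 and 2876 in Treg against 583, 605 and 559 in Tconv (log2 fold change 2.09 ± 0.26, adjusted p = 1.68e-04), and Irf4, which acts beside it in effector Treg, read 1323, 1253 and 1438 in Treg against 371, 372 and 462 in Tconv (log2 fold change 1.74 ± 0.18, adjusted p = 3.75e-05). None of these 4 overlapped. The 3 members not past the test included the lineage factors Gata3 (log2 fold change 0.44 ± 0.17, adjusted p = 0.121) and Tbx21 (log2 fold change -0.90 ± 0.41, adjusted p = 0.191), which both passed when experiment was a block (adjusted p = 0.0483 and 0.0163).

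The IL-2 axis differed in 2 receptor chains and in feedback inhibitors, while most members did not pass the test. Of 19 genes of the IL-2 and common gamma chain axis, 4 were higher, 1 was lower and 14 did not pass, with a median of 0.33. The receptor chains Il2ra and Il2rb were higher. Il2rb, the signalling chain shared with IL-15, read 27841, 27483 and 27742 in Treg against 8060, 8650 and 6815 in Tconv (log2 fold change 1.83 ± 0.12, adjusted p = 2.17e-06). The common gamma chain Il2rg had nearly equal levels (27341 ± 750.3 against 27376 ± 1946, SD, n = 3; log2 fold change 0.00 ± 0.12, adjusted p = 1). Cish and Socs2, feedback inhibitors induced by STAT5, were higher, with Cish at 4339, 3727 and 3444 in Treg against 844, 1107 and 749 in Tconv (log2 fold change 2.10 ± 0.24, adjusted p = 1.04e-04). Stat5a and Stat5b did not pass, at log2 fold changes of 0.32 and 0.33. Il7r, the IL-7 receptor chain, was lower at 8247, 8916 and 9458 in Treg against 17691, 14271 and 19081 in Tconv (log2 fold change -0.93 ± 0.18, adjusted p = 0.00448, call lost without experiment 3, adjusted p = 0.0788). Il2 read 22.9, 4.70 and 25.2 in Treg against 113, 86.2 and 72.2 in Tconv and did not pass the test (log2 fold change -2.56 ± 0.95, adjusted p = 0.107), although its 3 Treg values lay below its 3 Tconv values. It passed as lower in 4 of 20 settings, among them only Treg and Tconv values (adjusted p = 0.0114) and without experiment 6 (adjusted p = 0.0107).

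Receptors for costimulation and inhibition were more often higher than lower in Treg. Of 18 TNF receptor and costimulatory genes, 10 were higher and 2 lower, with a median of 1.19. Tnfrsf9 (4-1BB) read 6478, 5240 and 4948 in Treg against 569, 472 and 439 in Tconv (log2 fold change 3.49 ± 0.15, adjusted p = 6.66e-08), Tnfrsf8 (CD30) had a mean of 449.8 against 35.7 (log2 fold change 3.64 ± 0.32, adjusted p = 1.28e-05) and Tnfrsf1b, the second TNF receptor, of 9247 against 1684 (log2 fold change 2.47 ± 0.27, adjusted p = 7.42e-05). Icos, a relative of CD28, read 13423, 14242 and 14972 in Treg against 3518, 3478 and 3512 in Tconv (log2 fold change 2.02 ± 0.11, adjusted p = 5.26e-07). Cd28 itself did not pass (14226 against 16835, log2 fold change -0.25 ± 0.13, adjusted p = 0.281). The ligands of CD28 and CTLA-4 were also higher in Treg, Cd80 at 241, 322 and 344 in Treg against 20.2, 26.3 and 22.7 in Tconv (log2 fold change 3.64 ± 0.25, adjusted p = 2.54e-06) and Cd86 at 1212, 1796 and 1286 in Treg against 228, 198 and 228 in Tconv (log2 fold change 2.69 ± 0.24, adjusted p = 1.46e-05). B cells and dendritic cells also carry these ligands. The summed level of B cell markers, given further on, was also higher in Treg libraries, and its part in these differences was not tested. The members lower in Treg were Cd226, the activating counterpart of TIGIT (-0.77, call lost in 6 of 20 settings, adjusted p from 0.00359 to 0.248), and Tnfrsf1a (-0.43, call lost in 14 of 20 settings, adjusted p from 0.0232 to 0.306).

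Of 16 inhibitory receptors, 8 were higher and 2 lower, with a median of 0.29. Leaving out the Treg value or the whole of experiment 3 or of experiment 5 left 5 higher. Beside Ctla4, Tigit and Pdcd1, the higher members included Lag3, an MHC class II ligand (1123 against 259.9, log2 fold change 2.25 ± 0.49, adjusted p = 0.0083, call lost without experiment 3, adjusted p = 0.0732). Klrg1 (2.64, call lost in 5 of 20 settings, adjusted p from 0.00285 to 0.147) and Havcr2, which encodes TIM-3 (2.51, call lost in 5 of 20 settings, adjusted p from 0.00268 to 0.177), were less stable. Lair1, a collagen receptor, was lower at 86.2, 112 and 127 in Treg against 522, 425 and 505 in Tconv (log2 fold change -2.16 ± 0.26, adjusted p = 1.70e-04). Cd160 was lower as well (-0.67, call lost in 11 of 20 settings, adjusted p from 0.0138 to 0.235). Cd5, Cd96 and Btla did not pass, with log2 fold changes of -0.12, -0.02 and -0.17.

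Of 13 tested helper cytokines and TNF family ligands, 7 were lower (background 5.66%) and 3 higher, with a median of -1.65. Cd40lg, through which helper T cells activate B cells, read 601, 544 and 724 in Treg against 4631, 3605 and 4141 in Tconv (log2 fold change -2.73 ± 0.15, adjusted p = 4.19e-07). Il4 read 2.34, 1.88 and 12.7 in Treg against 92.7, 99.1 and 58.1 in Tconv (log2 fold change -4.01 ± 0.53, adjusted p = 2.84e-04), and Ifng read 182, 60.2 and 106 in Treg against 555, 860.4 and 421 in Tconv (log2 fold change -2.47 ± 0.36, adjusted p = 6.20e-04). None of these overlapped, with Treg values of Il4 at 12.7 or less. Tnfsf8, the CD30 ligand, was lower at 1408 against 3994 on average (log2 fold change -1.52 ± 0.18, adjusted p = 1.55e-04), while its receptor was higher. Against the list, Csf1, the macrophage growth factor, read 934, 1450 and 1110 in Treg against 88.5, 218 and 94.2 in Tconv (log2 fold change 3.22 ± 0.31, adjusted p = 2.53e-05). Lta, lymphotoxin alpha, read 1281, 1132 and 1098 in Treg against 514, 520.1 and 575 in Tconv (log2 fold change 1.12 ± 0.16, adjusted p = 5.23e-04), and Tnfsf11, which encodes RANKL, was higher by 1.44 (call lost in 5 of 20 settings, adjusted p from 0.00171 to 0.174). Tnf did not pass (332 against 312, log2 fold change 0.09 ± 0.16, adjusted p = 0.802). The table lists Il17a, Il17f, Il22 and Il5 below the minimum level for testing.

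In the fit given, genes of the naive and quiescent state were lower in Treg or did not pass the test. Of 26 members, 15 were lower and 0 higher, with a median of -0.86 in the limma fit. At an unadjusted p under 0.05, 16 were lower and 2 higher, and voom on reads gave 15 lower and 0 higher. Other settings gave higher members. Il6st passed as higher with equal totals (adjusted p = 0.0378) and without the second Treg library of experiment 3 (adjusted p = 0.0203). It also did with first libraries only (adjusted p = 0.0302) and without the Treg value of experiment 3 (adjusted p = 0.0457). Id3 passed as higher with only Treg and Tconv values (adjusted p = 0.0173) and with 13 libraries and their correlation estimated (adjusted p = 0.0192). Tcf7, which encodes TCF-1, read 4850, 5470 and 5395 in Treg against 36631, 31919 and 36281 in Tconv (log2 fold change -2.74 ± 0.13, adjusted p = 9.71e-08), and its relative Lef1 read 7012, 6443 and 6949 in Treg against 24042, 18447 and 22028 in Tconv (log2 fold change -1.65 ± 0.16, adjusted p = 2.26e-05). Satb1, a chromatin organiser, read 2258, 2352 and 2613 in Treg against 6711, 6579 and 7191 in Tconv (log2 fold change -1.50 ± 0.14, adjusted p = 1.57e-05). All 3 factors were separated in every experiment. Ccr7 and S1pr1, receptors for entry into and exit from lymph nodes, had means of 5176 against 19223 (log2 fold change -1.89 ± 0.13, adjusted p = 2.82e-06) and 8842 against 20093 (log2 fold change -1.19 ± 0.16, adjusted p = 3.89e-04). Dapl1 read 74.9, 38.6 and 105 in Treg against 2025, 1467 and 1923 in Tconv (log2 fold change -4.71 ± 0.32, adjusted p = 2.35e-06), Igfbp4 had a log2 fold change of -3.11 and Tgfbr3, the TGF-beta co-receptor betaglycan, of -3.12. Foxo1 had means of 6211 against 5239 (log2 fold change 0.25 ± 0.17, adjusted p = 0.419) and Klf2 of 923 against 1522 (log2 fold change -0.79 ± 0.28, adjusted p = 0.0881). Klf2 was lower past the test without the second Treg library of experiment 3 (adjusted p = 0.0036), as it was with first libraries only, without the Treg value of experiment 3 and without experiment 3 (adjusted p = 0.00312, 0.00615 and 0.0332).

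A list of 14 genes chosen as known to be lower in Treg had 10 lower members and 1 higher, with a median of -2.06. Pde3b, a cyclic AMP phosphodiesterase, read 56.8, 45.1 and 98.6 in Treg against 1960, 1533 and 2468 in Tconv (log2 fold change -4.92 ± 0.31, adjusted p = 1.12e-06). The exception was Phlpp1, an Akt phosphatase, at 1101, 1281 and 1200 in Treg against 97.0, 89.4 and 159 in Tconv (log2 fold change 3.41 ± 0.27, adjusted p = 7.01e-06); its place on that list is not sure.

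**Figure D4:**
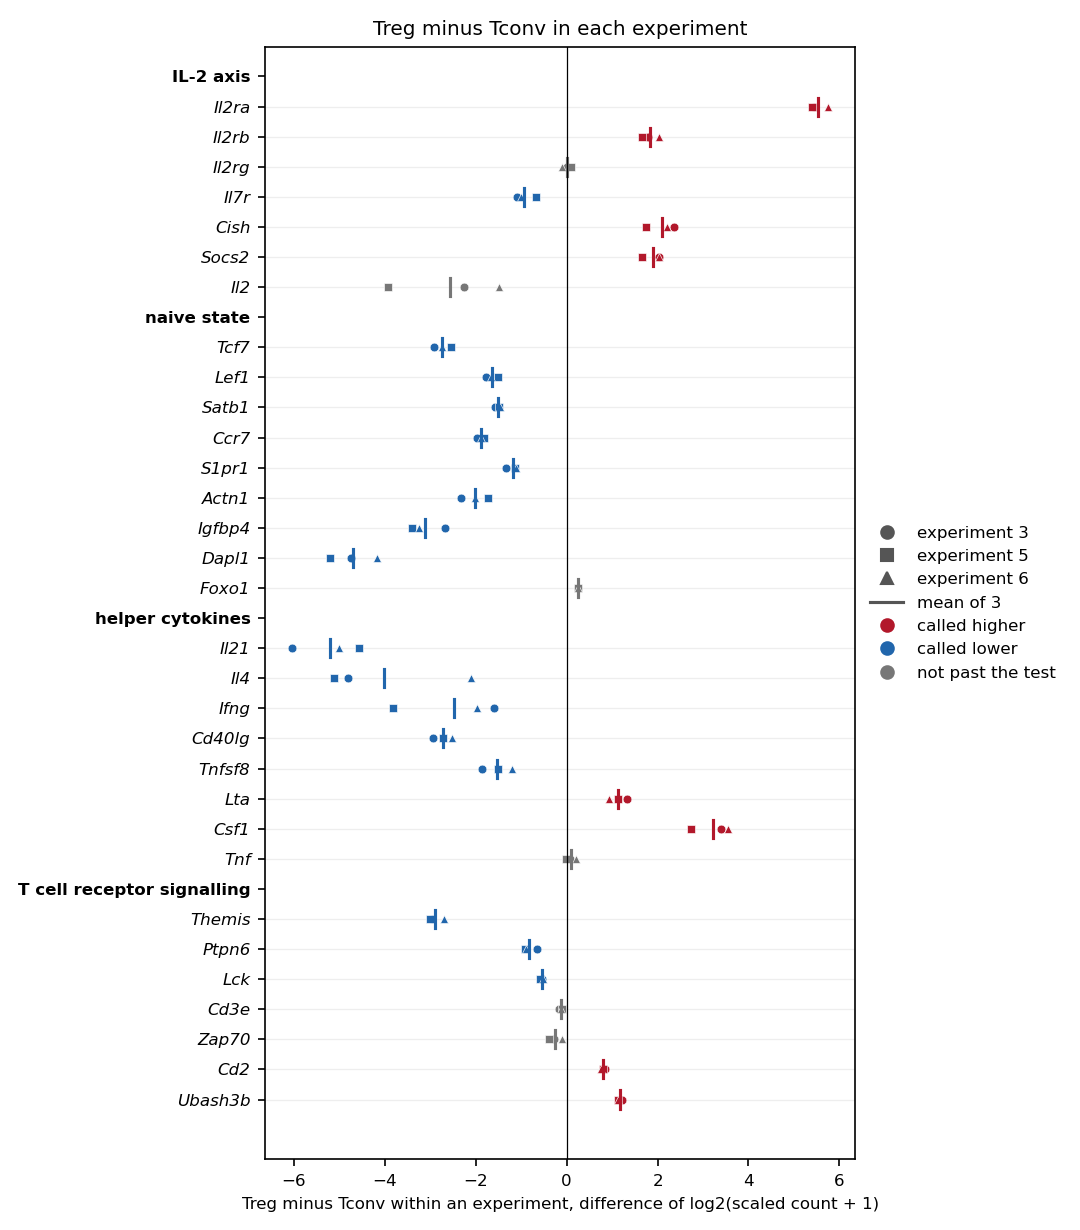
Treg minus Tconv difference of log2(scaled count + 1) within each experiment for genes of the IL-2 axis, the naive state, helper cytokines and T cell receptor signalling; red and blue mark called genes, grey genes not past the test, and bars the mean of 3. All called genes lie on the same side of 0 in 3 of 3 experiments, and Il2rg and Cd3e lie near 0.

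Transcription factors of the Ikaros family split by member. Ikzf2 and Ikzf4 are given above. Ikzf3, which encodes Aiolos, read 5325, 5790 and 5698 in Treg against 1627, 2093 and 1713 in Tconv (log2 fold change 1.64 ± 0.19, adjusted p = 1.08e-04), whereas Ikzf1, which encodes Ikaros, read 7839, 8041 and 9282 in Treg against 22906, 18322 and 22935 in Tconv (log2 fold change -1.35 ± 0.16, adjusted p = 1.66e-04). Ikzf5 did not pass (1505 against 1477, log2 fold change 0.04 ± 0.19, adjusted p = 0.945). Of 24 Foxp3 cofactors and NFAT, NF-kappaB and Runx factors, 1 was higher and 3 were lower, and 20 did not pass (16.7% called against 14.4% of all genes). The higher member was Runx2 (334 against 143, log2 fold change 1.24 ± 0.22, adjusted p = 0.00259). The lower ones were Eomes, Bach2 (1003 against 2083, log2 fold change -1.08 ± 0.20, adjusted p = 0.00309, call lost without experiment 5, adjusted p = 0.0761) and Myb (-0.78, call lost in 5 of 20 settings, adjusted p from 0.00345 to 0.217). Without experiment 5, 1 was lower. With experiment as a block the higher members numbered 4, the added genes being Relb, Nfkbia and Gata3 (adjusted p = 0.032, 0.0203 and 0.0483). Runx1, Cbfb, Nfatc1 and Nfatc2, known partners of Foxp3 or its enhancers, had log2 fold changes of 0.21, 0.41, 0.19 and 0.28 and did not pass.

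Trafficking receptors separated the populations in both directions. Of 19 chemokine and S1P receptors, 8 were higher and 5 lower, with a median of 0.60. Without experiment 3, the Tconv value of experiment 3 or 6, the Treg value of experiment 3 or 5, or the trend, 5 were higher. Gpr15, a homing receptor for the large intestine, read 872, 1479 and 1005 in Treg against 111, 122 and 87.3 in Tconv (log2 fold change 3.35 ± 0.36, adjusted p = 6.61e-05). Ccr8 read 964, 676 and 699 in Treg against 131, 83.9 and 57.6 in Tconv (log2 fold change 3.15 ± 0.28, adjusted p = 1.50e-05), and Ccr6 read 1687, 1743 and 1246 in Treg against 306, 312 and 188 in Tconv (log2 fold change 2.55 ± 0.35, adjusted p = 4.20e-04). These 3 and Ccr4 (1833 against 421, log2 fold change 2.15 ± 0.34, adjusted p = 9.89e-04) did not overlap. Cxcr5, which guides cells to B cell follicles, had means of 4664 against 1499 (log2 fold change 1.64 ± 0.15, adjusted p = 1.79e-05). Ccr3 read 311, 311 and 252 in Treg against 22.4, 40.8 and 8.68 in Tconv (log2 fold change 3.78 ± 0.96, adjusted p = 0.0197, call lost in 8 of 20 settings, adjusted p from 0.000301 to 0.11), and Cxcr3 had a small difference (0.46, call lost in 10 of 20 settings, adjusted p from 0.0189 to 0.247).

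Beside Ccr7 and S1pr1, the lower receptors were Cxcr6, Cx3cr1 and S1pr5. Cxcr6, the receptor for CXCL16, read 395, 649 and 1045 in Treg against 8201, 8533 and 7208 in Tconv (log2 fold change -3.62 ± 0.28, adjusted p = 4.93e-06). Cx3cr1, the fractalkine receptor, read 25.1, 40.4 and 9.39 in Treg against 135, 796 and 475 in Tconv (log2 fold change -4.06 ± 0.64, adjusted p = 9.91e-04). S1pr5 had Tconv values of 3.20, 91.5 and 24.8, so its mean rests on experiment 5 (call lost in 9 of 19 settings, adjusted p from 0.0038 to 0.401, and adjusted p = 0.0504 with experiment as a block). Of 20 integrin and adhesion genes, 5 were higher and 3 lower, with a median of -0.09, and 1 was lower without experiment 3. Beside Itgae, Itgb8 and Itgav, the higher members were Icam1 (log2 fold change 1.04 ± 0.17, adjusted p = 0.00126) and Itga6 (log2 fold change 0.92 ± 0.14, adjusted p = 9.87e-04). The lower members were Itgb3 (696 against 2790, log2 fold change -1.99 ± 0.34, adjusted p = 0.00171), Itga1 (-2.23, call lost without experiment 3, adjusted p = 0.0618) and Icam2 (-0.81, call lost without experiment 3, adjusted p = 0.0521). The leukocyte integrin chains Itgal, Itgb2 and Itgb7 did not pass, at -0.27, -0.28 and 0.31.

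Genes of helper lineages did not move as blocks. Of 12 Th1 genes, 3 were higher and 4 lower (median -0.76). Ifngr1, a chain of the interferon-gamma receptor, read 14747, 19362 and 15801 in Treg against 4796, 5134 and 4173 in Tconv (log2 fold change 1.82 ± 0.21, adjusted p = 9.88e-05), whereas Il12rb2, a chain of the IL-12 receptor, read 63.8, 90.3 and 110.5 in Treg against 314, 544 and 368 in Tconv (log2 fold change -2.20 ± 0.29, adjusted p = 3.04e-04). Exons of Il12rb2 overlap those of Serbp1 over 40% of their length, so reads there could belong to either gene. Il12rb1 was higher (1.77, call lost in 3 of 20 settings, adjusted p from 0.000131 to 0.0869), and 1 Th1 gene was without experiment 3, Treg of experiment 5 or Tconv of experiment 6. Of 8 Th2 genes, 3 were higher, namely Ccr8, Ccr4 and Il1rl1, the IL-33 receptor (393 against 91.3, log2 fold change 2.09 ± 0.61, adjusted p = 0.0404, call lost in 9 of 20 settings, adjusted p from 0.000484 to 0.149), and Il4 was lower (median 0.35). Of 10 Th17 genes, 4 were higher and Il21 was lower (median 0.40), with Ahr, the aryl hydrocarbon receptor, at 307 against 83.6 (log2 fold change 1.87 ± 0.34, adjusted p = 0.00295, call lost without experiment 5, adjusted p = 0.0613) and Maf at 5859, 5718 and 5414 in Treg against 1753, 2197 and 1671 in Tconv (log2 fold change 1.60 ± 0.16, adjusted p = 3.08e-05). Without experiment 5, 2 were higher.

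Of 20 follicular helper genes, 8 were higher and 4 lower (median 0.47), and 4 were higher without experiment 5. The higher members included Icos, Cxcr5, Pdcd1 and Tox2, an HMG-box factor (317 against 78.0, log2 fold change 1.97 ± 0.36, adjusted p = 0.00292), and Cebpa at few reads (14.8 against 1.59, log2 fold change 2.60 ± 0.69, adjusted p = 0.0243, call lost in 6 of 20 settings, adjusted p from 0.0142 to 0.188). Il21, Il4, Tnfsf8 and Pou2af1, a transcriptional coactivator (70.8, 71.5 and 71.7 in Treg against 315, 266 and 272 in Tconv, log2 fold change -1.98 ± 0.17, adjusted p = 1.24e-05), were lower. Bcl6, the lineage factor of follicular helper cells, did not pass (438 against 463, log2 fold change -0.10 ± 0.19, adjusted p = 0.811).

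The effector and memory list had 7 higher and 4 lower of 23 (median 0.29). Without experiment 3, or the Tconv value of experiment 3 or 6, 4 were higher, and 7 were lower with 13 libraries and their correlation estimated. Beside Prdm1, the higher members included S100a4 (472 against 167, log2 fold change 1.45 ± 0.26, adjusted p = 0.00273) and Ahnak (11862 against 6377, log2 fold change 0.89 ± 0.16, adjusted p = 0.00276). The lower members were Cxcr6, Id2, Fasl and Anxa1 (-1.01, call lost in 11 of 20 settings, adjusted p from 0.0137 to 0.3). Id2, an inhibitor of E proteins, read 3031, 2627 and 2617 in Treg against 12660, 13985 and 12384 in Tconv (log2 fold change -2.24 ± 0.15, adjusted p = 1.91e-06), and Fasl, the Fas ligand, read 203, 217 and 276 in Treg against 1002, 1098 and 996 in Tconv (log2 fold change -2.16 ± 0.24, adjusted p = 8.72e-05). Cd44, a marker of antigen-experienced cells, had means of 5616 against 4378 and did not pass (log2 fold change 0.36 ± 0.12, adjusted p = 0.0823, and adjusted p = 0.0473 with experiment as a block).

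The cytotoxic list had 6 lower and 3 higher of 14 (median -0.27). Gzmk, granzyme K, read 18.6, 33.9 and 26.8 in Treg against 650.0, 1347 and 729 in Tconv (log2 fold change -5.01 ± 0.33, adjusted p = 1.79e-06). Nkg7, a granule protein, read 792, 613 and 581 in Treg against 3218, 5557 and 3557 in Tconv (log2 fold change -2.60 ± 0.24, adjusted p = 1.77e-05), and Eomes, a T-box factor of cytotoxic and memory cells, read 36.5, 33.9 and 34.2 in Treg against 166, 218 and 142 in Tconv (log2 fold change -2.28 ± 0.33, adjusted p = 6.14e-04). All were lower in Treg without overlap. Beside Gzmb, Srgn, the granule proteoglycan serglycin, was higher at 16539 against 7258 (log2 fold change 1.18 ± 0.14, adjusted p = 1.38e-04). Tnfsf10, which encodes TRAIL, was higher with less stability (0.64, call lost in 11 of 20 settings, adjusted p from 0.0126 to 0.387, and adjusted p = 0.0643 with experiment as a block). Without experiment 3, 1 member was higher.

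Markers of NK and innate-like T cells were also lower in Treg. Of 9 tested genes on the list of CD8, NK and innate-like T cell markers, 6 were lower and 3 did not pass, and their summed level over 11 genes in the table was 1176 to 1427 in Treg and 5991 to 8283 in Tconv. Klrb1c, which encodes NK1.1, read 109.6, 109 and 206 in Treg against 1032, 1003 and 918 in Tconv (log2 fold change -2.85 ± 0.29, adjusted p = 4.16e-05). Zbtb16, which encodes PLZF, the factor of invariant NKT cells, read 0.766, 33.9 and 21.8 in Treg against 131, 258 and 154 in Tconv (log2 fold change -3.96 ± 0.88, adjusted p = 0.00911). No listed marker had 0 reads in either population, but Cd8a had 36 reads in Treg and 32 in Tconv, and Ncr1, an NK receptor, had means of 30.6 against 33.3. Cd8b1, the other CD8 chain listed, read 197.5 to 302.3 in Treg and 390.6 to 464.7 in Tconv. It did not pass (adjusted p = 0.165), but passed as lower in the fit of only Treg and Tconv values (adjusted p = 0.0327). The gene segments of the invariant NKT receptor, examined after the marker values were seen, were lower in Treg as well. Traj18 read 42.7, 38.6 and 41.3 in Treg against 156, 192 and 137 in Tconv (log2 fold change -1.94 ± 0.31, adjusted p = 0.00104) and Trav11d, which has a near-identical copy, 8.90, 15.1 and 27.1 in Treg against 111, 111 and 93.6 in Tconv (log2 fold change -2.69 ± 0.41, adjusted p = 8.75e-04). Cxcr6, Id2, Fasl, Ifng, Il4, Eomes, Gzmk and Nkg7 were also lower in Treg. The part of NK and innate-like T cells in those differences was not tested.

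**Figure D5:**
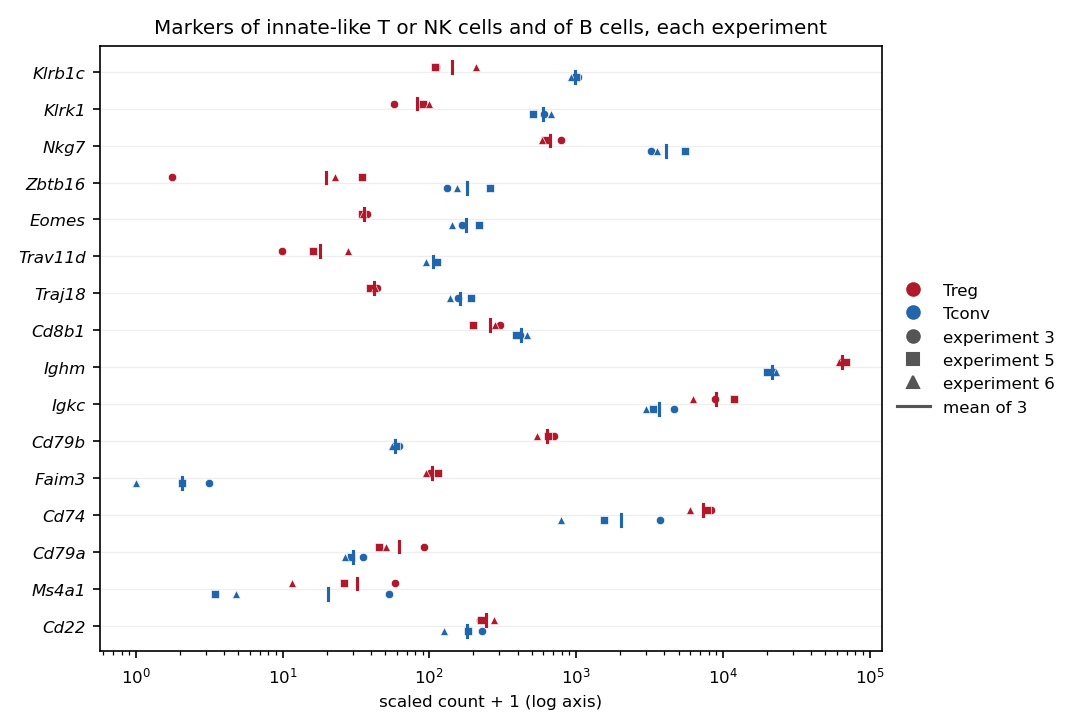
Scaled count plus 1 (log axis) of chosen markers in each experiment, Treg in red and Tconv in blue, with a bar at the mean of 3. The upper 8 rows are markers of innate-like T or NK cells, with 2 T cell receptor segments and the CD8 chain Cd8b1. The lower 8 rows are B cell markers. Tested list members not shown are Klrd1, Ncr1 and Gzmm, and the B cell markers Bank1, H2-Aa, H2-Ab1 and Cr2. Of these B cell markers, H2-Aa, H2-Ab1 and Cr2 had lower means in Treg and Bank1 a higher mean. Klrb1c, Klrk1, Nkg7 and Zbtb16 are lower in all Treg values, and Ighm, Cd79b and Faim3 are higher in all.

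T cell receptor signalling genes mostly did not pass the test. Of 28, 6 were lower, 2 higher and 20 did not pass, with a median of -0.20. Without experiment 3 or without experiment 5, 3 were lower. Themis, an adaptor that acts in T cell selection and receptor signalling, read 1114, 847 and 1324 in Treg against 8755, 6865 and 8659 in Tconv (log2 fold change -2.90 ± 0.23, adjusted p = 6.93e-06). Ptpn6, the phosphatase SHP-1, read 4786, 4155 and 5121 in Treg against 7555, 7880 and 9560 in Tconv (log2 fold change -0.83 ± 0.13, adjusted p = 0.00122). Themis had the lowest fold change of the list, and neither gene overlapped. Lck, the coreceptor kinase, was lower by -0.55 (call lost in 4 of 20 settings, adjusted p from 0.00547 to 0.203). Ubash3b, which encodes the phosphatase Sts-1, was higher at 2689, 2395 and 2433 in Treg against 1151, 1087 and 1114 in Tconv (log2 fold change 1.16 ± 0.13, adjusted p = 8.10e-05), as was Cd2, an adhesion receptor, at 25416 against 14587 (log2 fold change 0.80 ± 0.12, adjusted p = 7.25e-04). Zap70, Lat and Cd247 did not pass, with log2 fold changes of -0.26, -0.27 and -0.39; Cd247 passed with experiment as a block (adjusted p = 0.0483).

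Factors induced by receptor signalling mostly did not pass the test. Of 8 Egr and Nr4a genes, Egr2 alone passed, at 1568, 1560 and 1797 in Treg against 924, 749.8 and 848 in Tconv (log2 fold change 0.97 ± 0.18, adjusted p = 0.00264, call lost without experiment 5, adjusted p = 0.062). Nr4a1, Nr4a2 and Nr4a3 had log2 fold changes of 0.41, 0.79 and 1.03 and did not pass. Of 16 immediate early and stress genes, 1 was lower, Ier3, at 11.8, 13.2 and 10.8 in Treg against 83.1, 147 and 102 in Tconv (log2 fold change -3.08 ± 0.42, adjusted p = 3.60e-04), and with experiment as a block 3 were lower and 1 higher. Of 10 anergy ligases and diacylglycerol kinases, Dgka was lower at 14549 against 21536 (log2 fold change -0.57 ± 0.15, adjusted p = 0.0217, call lost in 8 of 20 settings, adjusted p from 0.00368 to 0.116), and with experiment as a block Rnf128 and Ndfip1 were higher (adjusted p = 0.036 and 0.005). The shares of these 3 lists, 12.5%, 6.25% and 10% called, were no larger than the 14.4% of all genes.

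Of 16 receptors and signal transducers of TGF-beta, 4 were higher and 3 lower (median -0.15). Tgfbr1, the type I receptor, read 3348, 3612 and 4004 in Treg against 1105, 716 and 979 in Tconv (log2 fold change 1.99 ± 0.22, adjusted p = 8.46e-05), whereas Tgfbr2, the type II receptor, read 2249, 2363 and 1914 in Treg against 4430, 4231 and 4057 in Tconv (log2 fold change -0.97 ± 0.13, adjusted p = 3.69e-04). Both were separated in every experiment. Acvrl1, another type I receptor, was lower at 116 against 1051 (log2 fold change -3.17 ± 0.71, adjusted p = 0.00972, call lost without experiment 3, adjusted p = 0.113 and without experiment 5, adjusted p = 0.054), as was Tgfbr3. The nuclear corepressor Tgif1 was higher at 1506 against 682 (log2 fold change 1.15 ± 0.14, adjusted p = 1.55e-04). Skil (0.83, call lost in 5 of 20 settings, adjusted p from 0.00197 to 0.168) and Smad3 (0.59, call lost in 6 of 20 settings, adjusted p from 0.00198 to 0.196) were less stable. The type I receptor Acvr1b and the type II receptor Acvr2a did not pass (-0.82 and 0.73). Without the Tconv value of experiment 5, or without experiment 3 or 5, 2 members were higher.

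Of 18 genes of glycolysis and glucose uptake, 3 were higher and 3 lower (median -0.10). The higher ones were Hif1a, the oxygen-regulated factor that drives glycolytic genes, at 5324, 6554 and 4395 in Treg against 1674, 1543 and 1565 in Tconv (log2 fold change 1.75 ± 0.15, adjusted p = 1.11e-05), the glucose transporter Slc2a3 at 8173, 9212 and 9971 in Treg against 2965, 2711 and 3059 in Tconv (log2 fold change 1.64 ± 0.14, adjusted p = 1.36e-05), and the lactate transporter Slc16a3 (1.94, call lost without experiment 3, adjusted p = 0.0506). The enzymes that passed were lower, Eno1 at 11907 against 19330 (log2 fold change -0.70 ± 0.13, adjusted p = 0.00258, call lost without experiment 5, adjusted p = 0.0687), Aldoa (-0.52, call lost in 5 of 20 settings, adjusted p from 0.00173 to 0.173) and Ldha (-0.39, call lost in 13 of 20 settings, adjusted p from 0.0138 to 0.333). Without experiment 3, the Tconv value of experiment 5 or 6 or the Treg value of experiment 6, 1 member was lower, and 5 were higher with 13 libraries and their correlation estimated. Without experiment 5 no enzyme passed in the limma fit, where 2 were lower at an unadjusted p under 0.05. Slc2a1, the other main glucose transporter of T cells, did not pass (1292 against 1337, log2 fold change -0.05 ± 0.13, adjusted p = 0.865).

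Of 21 apoptosis regulators, 4 were higher and 1 lower (median 0.36), and without experiment 5 none passed in the limma fit, where 5 were higher and 1 lower at an unadjusted p under 0.05. Without experiment 3 or the Tconv value of experiment 6, 1 was higher, and without the Treg value of experiment 3, 2 were. Pmaip1, which encodes NOXA, was higher by 1.42 (call lost in 4 of 20 settings, adjusted p from 0.0014 to 0.11), and Bid by 0.73 (call lost in 3 of 20 settings, adjusted p from 0.002 to 0.0936) and Bcl2a1b by 0.59 (call lost in 10 of 20 settings, adjusted p from 0.00531 to 0.173). Bcl2, a survival protein, was lower by -0.48 (call lost in 9 of 20 settings, adjusted p from 0.00822 to 0.271). Bcl2l11, which encodes BIM, and Mcl1 did not pass (-0.01 and 0.41).

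Most cell cycle genes were higher in Treg. Of 28 cell cycle genes, 19 were higher and 9 did not pass, with a median of 1.06, and 9 were higher without experiment 3. Mki67, a marker of cycling cells, read 1668, 1258 and 1526 in Treg against 476, 511 and 367 in Tconv (log2 fold change 1.72 ± 0.17, adjusted p = 2.86e-05). Rrm2, a subunit of ribonucleotide reductase, read 2487, 1533 and 1752 in Treg against 860.0, 619 and 559 in Tconv (log2 fold change 1.49 ± 0.26, adjusted p = 0.00176), and Birc5, which encodes survivin, had means of 428 against 137 (log2 fold change 1.68 ± 0.29, adjusted p = 0.00188). Bub1, Cenpf and Aurkb, which act at kinetochores or in cytokinesis, had log2 fold changes of 1.83, 1.73 and 1.71. Cdc20 and Aurka, also mitotic, did not pass (1.01 and 0.70). Of the subunits of the replicative helicase, Mcm6 was higher (0.59, call lost in 10 of 20 settings, adjusted p from 0.0111 to 0.253), while Mcm2, Mcm3, Mcm4 and Mcm5, like the replication clamp Pcna, did not pass, with log2 fold changes from -0.31 to 0.19.

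The type I interferon list was mixed. Of 20 genes, 4 were lower and 2 higher (median -0.26). Oas2 read 46.0, 20.7 and 64.0 in Treg against 324, 387 and 535 in Tconv (log2 fold change -3.33 ± 0.53, adjusted p = 0.00104), whereas Oas1a, of the same family of oligoadenylate synthetases, read 1050, 1034 and 1016 in Treg against 432, 582 and 526 in Tconv (log2 fold change 1.02 ± 0.15, adjusted p = 6.69e-04). Irf7, an amplifier of the response, was lower (-0.79, call lost without experiment 5, adjusted p = 0.0549). Ifit1, Isg15 and Mx1 did not pass, at -0.30, 0.36 and -0.22. Without experiment 5, 2 were lower.

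Guanylate binding proteins, GTPases of cell-autonomous defence that interferon-gamma induces strongly, were mostly higher in Treg. This family was examined after Gbp1 had ranked among the highest genes. Of 11 tested, 7 were higher and 4 did not pass (median 1.02), and 4 were higher without experiment 5. Beside Gbp1, Gbp3 read 6200, 6444 and 7032 in Treg against 785, 1181 and 1066 in Tconv (log2 fold change 2.72 ± 0.20, adjusted p = 3.56e-06) and Gbp7 read 15205, 18733 and 18926 in Treg against 7303, 7197 and 8045 in Tconv (log2 fold change 1.22 ± 0.16, adjusted p = 2.90e-04). Gbp5 had means of 749 against 314 (log2 fold change 1.25 ± 0.19, adjusted p = 9.10e-04) and Gbp2 of 8184 against 4052 (log2 fold change 1.02 ± 0.19, adjusted p = 0.00303, call lost without experiment 5, adjusted p = 0.0614), while Gbp6 (1.02, call lost in 3 of 20 settings, adjusted p from 0.000398 to 0.135) and Gbp10 (1.25, call lost in 7 of 20 settings, adjusted p from 0.00232 to 0.0836) were less stable. Gbp4, Gbp8, Gbp9 and Gbp11 did not pass. The fold change of Gbp1 exceeded that of every other member, and its Treg values, 2180 to 4206, were lower than those of Gbp7. These genes are similar in sequence, so reads of a member could be counted for another.

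RefSeq promoter windows (GRCm38.p6, 250 bases before to 50 after the gene start) were found for 5 of the 11, all of them called higher, and are shown because they share a motif. The interferon-stimulated response element, searched on both strands as GAAA, any 2 bases, GAAA, was in 5 of these 5 windows and in 3.44% of all 32851 windows. The gamma-activated site TTCNNNGAA was in 2 of 5, those of Gbp5 and Gbp7, and in 8.30% of all windows. The forkhead core TGTTTAC was in that of Gbp3 and in 3.65% of all windows. Capitals mark every match of these 3 motifs on either strand; Gbp1 of the table is Gbp2b in RefSeq. A match is a description of the letters and not evidence of binding. The forkhead search alone was planned beforehand. No family member that did not pass the test had a window, so these shares cannot be related to the difference between populations.
Gbp1 (chr3:142594597-142594896, plus strand): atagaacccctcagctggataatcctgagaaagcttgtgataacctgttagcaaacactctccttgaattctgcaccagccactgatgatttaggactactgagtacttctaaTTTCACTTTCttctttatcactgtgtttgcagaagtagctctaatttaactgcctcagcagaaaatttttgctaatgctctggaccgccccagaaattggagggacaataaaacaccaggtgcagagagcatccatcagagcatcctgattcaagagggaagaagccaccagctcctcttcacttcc
Gbp2 (chr3:142620413-142620712, plus strand): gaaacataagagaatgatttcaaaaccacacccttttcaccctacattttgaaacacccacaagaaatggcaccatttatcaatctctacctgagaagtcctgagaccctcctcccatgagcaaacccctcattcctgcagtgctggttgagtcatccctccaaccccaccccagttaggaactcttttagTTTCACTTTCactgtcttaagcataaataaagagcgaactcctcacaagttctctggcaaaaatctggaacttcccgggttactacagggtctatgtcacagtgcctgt
Gbp3 (chr3:142559794-142560093, plus strand): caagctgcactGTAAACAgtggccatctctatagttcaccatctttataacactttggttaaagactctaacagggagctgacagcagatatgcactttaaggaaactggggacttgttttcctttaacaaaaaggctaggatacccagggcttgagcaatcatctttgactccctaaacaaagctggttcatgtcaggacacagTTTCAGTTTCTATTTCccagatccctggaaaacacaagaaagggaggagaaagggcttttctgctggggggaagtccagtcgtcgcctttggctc
Gbp5 (chr3:142496684-142496983, plus strand): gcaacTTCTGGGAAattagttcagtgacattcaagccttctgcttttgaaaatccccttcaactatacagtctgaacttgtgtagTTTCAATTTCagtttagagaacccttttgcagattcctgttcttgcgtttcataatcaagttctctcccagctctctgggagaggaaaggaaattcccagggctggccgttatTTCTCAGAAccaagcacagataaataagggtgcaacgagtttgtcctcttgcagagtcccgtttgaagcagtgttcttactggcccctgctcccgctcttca
Gbp7 (chr3:142530086-142530385, plus strand): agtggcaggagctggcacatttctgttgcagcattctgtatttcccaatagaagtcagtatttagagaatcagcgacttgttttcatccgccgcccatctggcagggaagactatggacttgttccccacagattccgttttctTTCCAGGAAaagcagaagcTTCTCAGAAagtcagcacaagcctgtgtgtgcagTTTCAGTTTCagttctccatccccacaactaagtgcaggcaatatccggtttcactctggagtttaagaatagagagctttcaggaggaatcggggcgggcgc
Among the 20 genes with the highest and lowest fold changes, 14 had a window in the table and 0 of these held the forkhead core.

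Of 12 tested B cell markers, 6 were higher and 6 did not pass (median 1.18), and 3 were higher without experiment 5. Their summed level over 17 genes was 75083 to 90519 in Treg and 25575 to 32387 in Tconv. Most of it was Ighm, the IgM heavy chain, which read 64321, 69344 and 61446 in Treg against 22265, 20081 and 22944 in Tconv (log2 fold change 1.58 ± 0.13, adjusted p = 6.75e-06). Without Ighm, Igkc and Cd74 the sums were 1386 to 2030 and 442.1 to 1721. Cd79b, a B cell receptor subunit, read 706, 642 and 540.0 in Treg against 60.7, 58.3 and 54.5 in Tconv (log2 fold change 3.41 ± 0.26, adjusted p = 5.11e-06), but its partner Cd79a had means of 61.3 against 29.3 and did not pass (log2 fold change 0.98 ± 0.36, adjusted p = 0.106, adjusted p = 0.0468 with first libraries only). Cd74, the MHC class II chaperone, read 8295, 7774 and 6000 in Treg against 3731, 1557 and 792 in Tconv (log2 fold change 2.13 ± 0.40, adjusted p = 0.00344, call lost without experiment 5, adjusted p = 0.0897), while H2-Aa and H2-Ab1, which encode MHC class II chains, did not pass (-0.50 and -0.41). Faim3, an Fc receptor for IgM, read 100.4, 114 and 93.8 in Treg against 2.13, 1.07 and 0 in Tconv (log2 fold change 5.79 ± 0.50, adjusted p = 1.24e-05). Pax5, a defining transcription factor of B cells, had 3 reads in each population. Ms4a1, Cd22 and Cr2 did not pass (1.45, 0.47 and -0.45). No listed marker had 0 reads in either population.

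Of 5 plasma cell markers, 4 were higher (median 1.42), with sums of 6797 to 10449 in Treg and 2697 to 3314 in Tconv over 6 genes. Leaving out the Treg or the Tconv value of experiment 3, the Treg value of experiment 5, the Tconv value of experiment 6, the trend or all of experiment 3 left 2, and leaving out experiment 5 left 1. Igj, the joining chain of secreted IgM and IgA, read 4539, 5540 and 2867 in Treg against 2042, 1262 and 1454 in Tconv (log2 fold change 1.42 ± 0.30, adjusted p = 0.00667, call lost without experiment 5, adjusted p = 0.122). Treg also express Prdm1, which is on that list. Of 14 myeloid and dendritic markers, none passed in the limma fit or with voom, and 1 was higher and 1 lower in the limma fit at an unadjusted p under 0.05. Their sums, 1884 to 3333 in Treg and 1513 to 2196 in Tconv, overlapped. Of 4 erythroid and platelet markers, Car1 was higher with overlapping values (241, 239.8 and 115 in Treg against 118, 65.7 and 74.7 in Tconv, log2 fold change 1.16 ± 0.33, adjusted p = 0.0328, call lost in 8 of 20 settings, adjusted p from 0.0083 to 0.395).

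Pan T cell genes mostly did not pass the test. Of 17, 4 were lower (Tcf7, Thy1, Cd4 and Lck) and 1, Cd2, was higher, with a median of -0.26. Thy1 had means of 1112 against 1998 (log2 fold change -0.85 ± 0.21, adjusted p = 0.0163, call lost in 5 of 20 settings, adjusted p from 0.00157 to 0.19). Trac and Trbc2, the constant regions of the T cell receptor, did not pass (-0.26 and -0.17). Without experiment 3, 2 were lower and without experiment 5, 1 was.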

How the data were processed

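RNA-seq of 13 libraries of sorted mouse splenic CD4 T cells was used, 10 of them in this comparison. Trizol RNA (100 ng) was depleted of ribosomal RNA by RiboMinus and prepared with an Ion Total RNA-seq kit, per the labels' protocols. The submitters' processing notes name Picard, HTSeq 0.5.4, limma and 3 builds (mm9, hg19, GRCh37) without their roles. For the aligner and strand setting, the sources used here give nothing. The table the authors deposited holds 18649 genes as a signal, namely scaled counts. After 1 was subtracted, dividing each library's values by a single constant gave whole reads (100% of values, within 0.001 reads).

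Libraries of an experiment and population were averaged. Treg of experiment 5 and Tconv of experiment 3 have 1 library. Pairs titled replicate had a chi-square of 7.77 to 73.5 per degree of freedom, where 1 is sampling noise, so no pair agrees within it. The labels do not say whether experiments or pairs are separate animals, so the spread behind the p-values may be technical. Genes with a mean of at least 10 over the 9 values of 3 populations were tested on log2(scaled count + 1) with limma 3.58.1 in R 4.3.3 (trend on mean level, shared variance, 2-sided, Benjamini-Hochberg over 14177 genes, adjusted p under 0.05), which was tested on simulated data; log2 values understate the change of low genes. The remaining 4472 genes were below the minimum.

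Titles give the experiment, which pairs the populations. Deviations from the population mean correlated by 0.243, 0.218 and 0.298 across genes within experiments 3, 5 and 6, and by -0.141 to -0.103 between different experiments. The labels state no method for a block, and the fit given has none. Its standard errors and adjusted p therefore leave this pairing out. With experiment as a block 2204 genes passed, of which 1969 were among the 2039 of the fit given. A gene was named if it was used in the sort, if it was among the 10 highest or lowest called fold changes with a mean of at least 100 in the higher population and no overlap, if it was a called Treg identity gene, among the 4 largest called changes of any other list or against its list's majority, or among the 5 largest differences in level each way; other list members are given where a reader would look for them. Some genes that this rule names are not reported here. The comparison and the gene lists were chosen with earlier results of these data known. Alternatives changed pairing, pseudocount, filter, scaling, samples, libraries and variance model; voom on the recovered reads was added after seeing the data.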

Additional observations from a re-analysis of the deposited data

How the results depend on the processing

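The counts of higher and lower genes stayed within 1.5 times of 1237 and 802 under a pseudocount of 10, no filter, a minimum mean of 50, only Treg and Tconv values, first libraries only, 13 libraries with their correlation estimated, no trend, equal totals (1367 and 690), voom on reads (1298 and 908) and without the second Treg library of experiment 3 (1273 and 823). Leaving out single values or whole experiments gave 664 to 1050 higher, 312 to 691 lower and 885 to 1206 over 2-fold; leaving out a whole experiment leaves 2 values a population. With experiment as a replicate block, 1340 were higher and 864 lower; among listed and named genes the block ended the calls of S1pr5 and Tnfsf10 only, and added 22. No called gene reversed direction in any setting. Fewer lower genes passed without the Tconv value of experiment 3 (498) or 6 (523), the Treg value of experiment 5 (523), or experiment 3 (348) or 5 (312); without experiment 3 or 5, 702 or 664 were higher. Depth limits the 4472 genes below the minimum, for which no difference could be tested.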

Other observations

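Cytosolic ribosomal protein genes, grouped by name after their values were seen, were lower in Treg. Of 76 tested, 65 were lower and 76 had a negative log2 fold change, with a median of -0.65 and a range from -0.98 to -0.09. Their summed level was 1120872, 859016 and 862494 in Treg against 1612864, 1478170 and 1383600 in Tconv, so the populations did not overlap and the Treg value of experiment 3 was nearest to Tconv. The direction held in each of the 20 settings for at least 75 of 76, but the count of calls did not: 3 were lower without experiment 5, 45 without experiment 3, 33 without the Tconv value of experiment 3, 34 without the Treg value of experiment 5 or of experiment 6, 43 without the trend, and 55 with equal totals. Rplp0, a stalk protein of the large subunit, read 39316, 30399 and 30739 in Treg against 68875, 65378 and 62497 in Tconv (log2 fold change -0.98 ± 0.14, adjusted p = 5.42e-04). Rpl3 (-0.73, call lost without experiment 5, adjusted p = 0.117), Rpl4 (-0.65, call lost without experiment 5, adjusted p = 0.131) and the elongation factor Eef1a1 (-0.66, call lost in 5 of 20 settings, adjusted p from 0.00215 to 0.174) were, with Tcf7, the genes with the largest fall in scaled count. The genes with the largest rise were Ighm, Il2ra, Ikzf2, Il2rb and Ly6e, a GPI-anchored surface protein (47241, 40661 and 40670 in Treg against 24879, 25819 and 26211 in Tconv, log2 fold change 0.74 ± 0.12, adjusted p = 0.0015).

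Of 5 tested genes within 4 places of Foxp3 on the X chromosome, in RefSeq gene order of GRCm38.p6, 3 were higher in Treg, where 8.73% of all genes tested were. Ppp1r3f, the gene before it, read 449, 453 and 456 in Treg against 156, 177 and 156 in Tconv (log2 fold change 1.47 ± 0.25, adjusted p = 0.00191). Ccdc22, the gene after it, read 552, 501 and 561 in Treg against 117, 85.4 and 144 in Tconv (log2 fold change 2.24 ± 0.29, adjusted p = 2.59e-04). Exons of Foxp3 overlap those of Ccdc22 and Ppp1r3f over 12.9% and 5.81% of the length of Foxp3, so reads there could belong to either gene. The overlapping share of the neighbours' own exons is not given, and Foxp3 was far more abundant in Treg than they were. The largest overlap, 18.6%, was with 4930524L23Rik on the same strand, which had means of 416.4 in Treg and 20.54 in Tconv. Syp, the third gene after it, encodes synaptophysin and read 186, 334 and 184 in Treg against 27.7, 26.1 and 26.2 in Tconv (log2 fold change 3.03 ± 0.45, adjusted p = 7.04e-04). Clcn5, the third before it, and Prickle3, the fourth after it, did not pass (0.47 and 0.53).

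Of 129 tested immunoglobulin V segments, 14 (10.9%, beside 8.73% of all genes tested) were higher in Treg and 3 had a negative log2 fold change, with a median log2 fold change of 1.25 and summed levels of 8350 to 15794 in Treg against 4017 to 6075 in Tconv. Of 120 T cell receptor alpha V and J segments, 3 were lower (2.5%, a smaller share than the 5.66% of all genes tested). These were Trav11d and Traj18, given above, and Trav14-2 (202 against 366, log2 fold change -0.85 ± 0.17, adjusted p = 0.00491). Interferon regulatory factors Irf5 (840.1 against 309, log2 fold change 1.44 ± 0.16, adjusted p = 7.85e-05) and Irf8 (809 against 255, log2 fold change 1.69 ± 0.22, adjusted p = 2.89e-04), which B cells and myeloid cells also express, were higher in Treg, while Irf1 (0.20), Irf2 (0.04) and Irf9 (0.04) did not pass. The part of B cell RNA, described above by its markers, in the values of Irf5 and Irf8 was not tested.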
